A study of Mus musculus with 8 samples.

Results

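The genes described here encode transcription factors that direct cell fate in the embryo: the Sox, Fox, Gata, Lhx, Pax, Otx and Hox families. They were taken from the GENCODE mouse annotation by symbol, as protein-coding genes named after 1 of the 7 families followed by a number, with Sox2 left out. This gave 126 of 21951 protein-coding genes: 44 Fox, 39 Hox, 18 Sox, 9 Pax, 8 Lhx, 6 Gata and 2 Otx genes. The peaks assigned to a gene were those of 3 deposited lists whose midpoint lay within the span of the gene on the same strand, 54 of 17068 peaks in all. The rule itself uses symbols and positions, not measured values.

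The peaks mark N6-methyladenosine (m6A), a methyl group that the METTL3/METTL14 complex adds to adenosines of nascent RNA, mostly within the sequence context DRACH (A, G or T, then A or G, then AC, then A, C or T). In messenger RNA it is known to lie in long exons and near stop codons, and in stem cells it is known to shorten the life of transcripts that specify differentiation. The study's methods state that the antibody does not separate m6A from the related mark m6Am. They add that peaks close to transcript starts may be m6Am. Sox proteins bind DNA through an HMG box and Fox proteins through a forkhead domain. Gata factors use zinc fingers, Pax factors a paired domain, and Lhx, Otx and Hox factors a homeodomain. Hox genes pattern the body axis, whereas several Fox genes of the FoxO, FoxP, FoxK, FoxJ, FoxN and FoxM groups act in many adult and embryonic cell types.

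RNA associated with chromatin, which is rich in nascent transcripts, was isolated from E14 mouse embryonic stem cells, a line kept undifferentiated in serum with LIF. It was fragmented and immunoprecipitated with an anti-m6A antibody from Synaptic Systems (SySy) or from Abcam (ChrMeRIP-seq), and unprecipitated RNA was sequenced as input, giving 8 libraries in 4 groups of 2. All groups were the same untreated cell line, so the design compares antibodies, not treatments. Cfg1 (5277 peaks) holds peaks called with both antibodies, Cfg2 (5472 peaks) those called with SySy where the Abcam signal stayed under the calling threshold, and Cfg3 (6319 peaks) those called with Abcam alone. The lists give no peak height, p-value or read depth, so no error between replicates can be stated, and intervals below are 95% Wilson intervals that cover counting error only. RNA amounts are not in these lists, so a gene that was not transcribed and a gene that was transcribed without methylation cannot be told apart. Of 7 stem cell marker genes, 6 held a peak (85.7%, 48.7% to 97.4%), against 25.1% of all protein-coding genes. For example, Klf4 held 10, Esrrb 4 and Nanog 2, and Dppa5a held none. For the same reason these counts do not show the expression of the markers and are no check of the cell type.

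The sequences below show where the peaks of these genes lay. They were read from the GRCm38.p6 assembly (RefSeq), which has the coordinates of mm10, in the direction of the transcript. Only the coding or intronic part of a peak is given. Capitals mark each GGAC that is followed by A, C or T. These are the forms of DRACH that begin with GG, and GGACT among them is the best-known m6A context. The first set holds coding peaks of paralogous genes: in exon 2 of Foxn2 and Foxn3, in the last codons of Foxo1 and Foxo3, and in the last codons of Sox12 and Sox4. They lie at matching places of the related proteins, except that the second of the 2 Foxn3 peaks shares 1 aligned codon with the Foxn2 peak.
Foxn2, Cfg1, chr17:88462834-88463083, + strand: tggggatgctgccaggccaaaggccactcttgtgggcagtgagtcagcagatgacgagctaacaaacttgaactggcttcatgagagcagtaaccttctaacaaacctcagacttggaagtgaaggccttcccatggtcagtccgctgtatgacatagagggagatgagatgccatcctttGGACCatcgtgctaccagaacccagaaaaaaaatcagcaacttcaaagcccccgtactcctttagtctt
Foxn3, Cfg1, chr12:99388543-99388728, - strand: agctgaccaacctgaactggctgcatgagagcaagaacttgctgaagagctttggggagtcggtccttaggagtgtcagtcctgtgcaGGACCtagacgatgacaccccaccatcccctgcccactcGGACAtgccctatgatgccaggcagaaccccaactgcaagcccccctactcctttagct
Foxn3, Cfg1, chr12:99388405-99388541, - strand: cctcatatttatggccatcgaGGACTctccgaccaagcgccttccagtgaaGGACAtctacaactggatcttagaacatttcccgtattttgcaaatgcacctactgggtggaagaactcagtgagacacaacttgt
Foxo1, Cfg1, chr3:52346178-52346376, + strand: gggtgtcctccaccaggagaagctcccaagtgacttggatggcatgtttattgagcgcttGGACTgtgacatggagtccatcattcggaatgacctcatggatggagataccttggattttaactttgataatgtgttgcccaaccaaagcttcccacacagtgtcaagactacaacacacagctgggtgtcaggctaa
Foxo3, Cfg1, chr10:42196501-42196700, - strand: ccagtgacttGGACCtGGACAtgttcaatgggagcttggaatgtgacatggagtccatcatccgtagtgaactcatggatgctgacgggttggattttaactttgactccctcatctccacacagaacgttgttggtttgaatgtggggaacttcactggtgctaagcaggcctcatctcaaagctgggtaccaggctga
Sox12, Cfg2, chr2:152396754-152396922, - strand: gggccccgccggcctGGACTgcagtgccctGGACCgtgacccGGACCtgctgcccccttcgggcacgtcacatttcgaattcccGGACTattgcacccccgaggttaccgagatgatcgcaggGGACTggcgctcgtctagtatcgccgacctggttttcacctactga
Sox4, Cfg3, chr13:28951699-28951751, - strand: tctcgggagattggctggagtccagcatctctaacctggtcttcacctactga

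The second set holds coding peaks near the start of the reading frame. Foxo6 is shown for its 3 GGACT in 1 peak, and Sox4 and Sox15 for a GGACT close to the start codon. The peaks of Foxo6 and Sox15 began 110 nt and 116 nt after the annotated start of the gene, and whether they mark m6A or m6Am was not tested.
Foxo6, Cfg2, chr4:120286990-120287239, - strand: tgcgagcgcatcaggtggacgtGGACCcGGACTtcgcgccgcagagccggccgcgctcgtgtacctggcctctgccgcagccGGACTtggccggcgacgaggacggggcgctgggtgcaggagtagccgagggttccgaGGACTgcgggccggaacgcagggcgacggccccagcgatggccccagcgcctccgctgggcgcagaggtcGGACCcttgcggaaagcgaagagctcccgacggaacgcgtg
Sox4, Cfg2, chr13:28952856-28953021, - strand: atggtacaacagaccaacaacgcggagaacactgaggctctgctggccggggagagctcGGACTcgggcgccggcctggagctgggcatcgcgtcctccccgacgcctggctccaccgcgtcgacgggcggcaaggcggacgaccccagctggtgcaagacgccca
Sox15, Cfg2, chr11:69655430-69655542, + strand: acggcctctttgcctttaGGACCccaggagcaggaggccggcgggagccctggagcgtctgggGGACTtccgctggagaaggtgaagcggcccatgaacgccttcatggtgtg

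The third set holds intronic peaks of Foxn2. The peak in intron 1 is the only intronic peak of these genes that was called with both antibodies. The peak in intron 2 was called with Abcam alone and has 3 GGACT, more than any other intronic peak of these genes.
Foxn2, intron 1, Cfg1, chr17:88457440-88457558, + strand: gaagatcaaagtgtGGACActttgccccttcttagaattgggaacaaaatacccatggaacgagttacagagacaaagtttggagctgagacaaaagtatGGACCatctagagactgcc
Foxn2, intron 2, Cfg3, chr17:88470422-88470523, + strand: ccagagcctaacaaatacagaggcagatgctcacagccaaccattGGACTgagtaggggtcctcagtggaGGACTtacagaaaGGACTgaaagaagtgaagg

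The fourth set shows 29 nucleotides around a GGACT in the 3′ UTRs of Foxk2, Foxp4 and Sox4, all from Cfg1 peaks.
Foxk2, chr11:121307089-121307117, + strand: ggccctgcggttGGACTtcacctctcagc
Foxk2, chr11:121307280-121307308, + strand: ccaggtcccaaaGGACTgagtctcctggg
Foxp4, chr17:47868539-47868567, - strand: aaggcacttcggGGACTcagacgggggag
Sox4, chr13:28951242-28951270, - strand: caacgagcttccGGACTtggttgcacccc

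Peaks were found in 19 of the 126 genes (15.1%, 9.87% to 22.4%). Of all protein-coding genes, 25.1% held a peak of any list. The share among the developmental factors was therefore below the background, with an interval that does not reach it. The 126 genes include 39 Hox genes, none of which held a peak, and their part in this difference was not tested. By list, 12 genes held a Cfg1 peak (9.52%, against 12.1% of all protein-coding genes), 10 held a Cfg2 peak (7.94% against 13.7%) and 9 held a Cfg3 peak (7.14% against 13.3%). The intervals of Cfg1 (5.53% to 15.9%) and Cfg2 (4.37% to 14.0%) spanned the share of all genes, and that of Cfg3 (3.80% to 13.0%) ended just below it. A second set of 86 developmental factors, chosen by symbol from other families such as Tbx, Dlx, Nkx, Irx, Pbx, Meis and Pou, gave a similar count: 10 held a peak (11.6%, 6.44% to 20.1%). Among those 10, Six4 held 6 peaks, of which 4 were in Cfg1, and Tbx3 and Pou2f1 held 3 each.

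All 54 peaks fell in Fox (37 peaks in 12 of 44 genes), Sox (12 peaks in 6 of 18 genes) and Otx genes (5 peaks in 1 of 2 genes). None of the 39 Hox, 9 Pax, 8 Lhx and 6 Gata genes held a peak of any list. The interval of the Hox genes ended at 8.97%, below the 25.1% of all genes, whereas those of the Pax (29.9%), Lhx (32.4%) and Gata genes (39.0%) reached past it. The shares of the Fox (27.3%, 16.4% to 41.9%) and Sox genes (33.3%, 16.3% to 56.3%) were near it. Within the Fox family, 15 genes were listed by group as widely expressed: all FoxO, FoxP and FoxK genes with Foxj2, Foxj3, Foxn2, Foxn3 and Foxm1. Of these, 10 held a peak (66.7%, 41.7% to 84.8%), 9 of them a Cfg1 peak. The remaining 29 Fox genes held 2 peaks, 1 in Foxd3 and 1 in Foxn4 (2 of 29 genes, 6.90%, 1.91% to 22.0%). The list is not uniform, since Foxp3 is best known from regulatory T cells and Foxo6, which held a peak, from the brain. The 5 genes of it without a peak were Foxj2, Foxj3, Foxo4, Foxp2 and Foxp3.

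**Figure D1:**
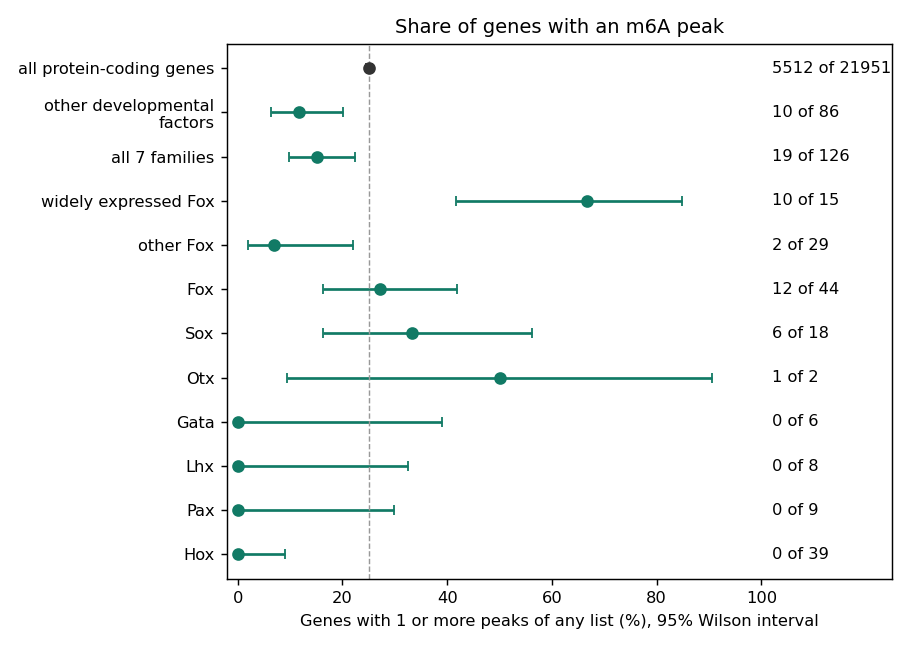
The horizontal axis gives the share of genes with 1 or more peaks of any list in percent, with 95% Wilson intervals, for each family and for comparison sets. The dashed line is the share among all protein-coding genes. The Fox genes listed as widely expressed lie to its right with 10 of 15, and the Hox, Pax, Lhx and Gata genes lie at 0.

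By lineage, none of the 8 endoderm factors (Gata4, Gata6, Sox7, Sox17, Foxa1, Foxa2, Foxa3 and Lhx1) held a peak. Of 11 neural factors, 4 did (36.4%, 15.2% to 64.6%): Sox4 and Otx2 with 5 peaks each, and Sox1 and Sox21 with 1 each. Sox3, Sox11, Pax6, Otx1, Lhx2 and Lhx5 were among those that held none. Of 5 neural crest factors, Foxd3 held 1 peak (3.62% to 62.5%), and Sox9, Sox10, Pax3 and Pax7 held none. The lists are small: the interval of the endoderm factors reached 32.4%, and those of all 3 lists spanned the 25.1% of all protein-coding genes. Otx2 and Foxd3 are both known to be expressed in pluripotent cells as well as in the lineages they later specify. The deposited lists hold no transcript levels that would set a missing peak in context.

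In the representative transcript of each gene, the one with the longest coding sequence, the median spliced length was 4453 nt in the 19 genes with a peak and 2566 nt in the other 107, against 2545 nt over all protein-coding genes and 3671 nt over the 5512 of these that held a peak. The longest exon had a median of 3370 nt in the genes with a peak and 1533 nt in those without, against 1186 nt over all protein-coding genes and 1700 nt over those with a peak. The 126 genes had few but long exons, with a median of 2 exons against 7 over all protein-coding genes and a median longest exon of 1616 nt. Among genes with a spliced length of 3000 nt or more, 14 of 46 developmental factors held a peak (30.4%, 19.1% to 44.8%), against 39.2% of all such protein-coding genes. Among shorter genes the counts were 5 of 80 (6.25%, 2.70% to 13.8%) against 15.5%. The share of developmental factors stood below that of all genes in both length classes, with an interval that excluded it in the shorter class. All Hox genes but Hoxa9 (3226 nt) and Hoxb3 (3190 nt) were in the shorter class, and no Hox gene held a peak. Their part in these differences was not tested. Of the 21 genes with 1 exon, Foxd3, Sox1, Sox4, Sox12 and Sox21 held peaks (23.8%, 10.6% to 45.1%), against 9.07% of all protein-coding genes with 1 exon. That threshold and this split were chosen after the values were seen.

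Among the 19 genes with peaks, the median was 2 peaks per gene, the same as over all protein-coding genes with a peak. Foxo1, a FoxO factor that acts downstream of insulin signalling, and Foxn3, a forkhead repressor, held the most, with 6 each. Foxn2, Foxo3, Otx2 and Sox4 held 5, Foxk2 held 4, and Foxk1 and Foxm1 held 3. These 9 genes held 42 of the 54 peaks. The lists combined differently from gene to gene: Foxd3, Foxm1, Foxp1, Foxp4 and Sox1 held Cfg1 peaks alone, and Foxn4, Foxo6, Otx2, Sox12 and Sox15 held Cfg2 peaks alone. Foxk1, Foxo1, Foxo3 and Sox4 had peaks of all 3 lists, and Sox21 had a peak of Cfg3 alone. Neighbouring peaks are not independent sites, because the authors split wide regions between summits: 12 pairs of neighbours were separated by 1 nt, and joining peaks within 100 nt left 40 regions.

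**Figure D2:**
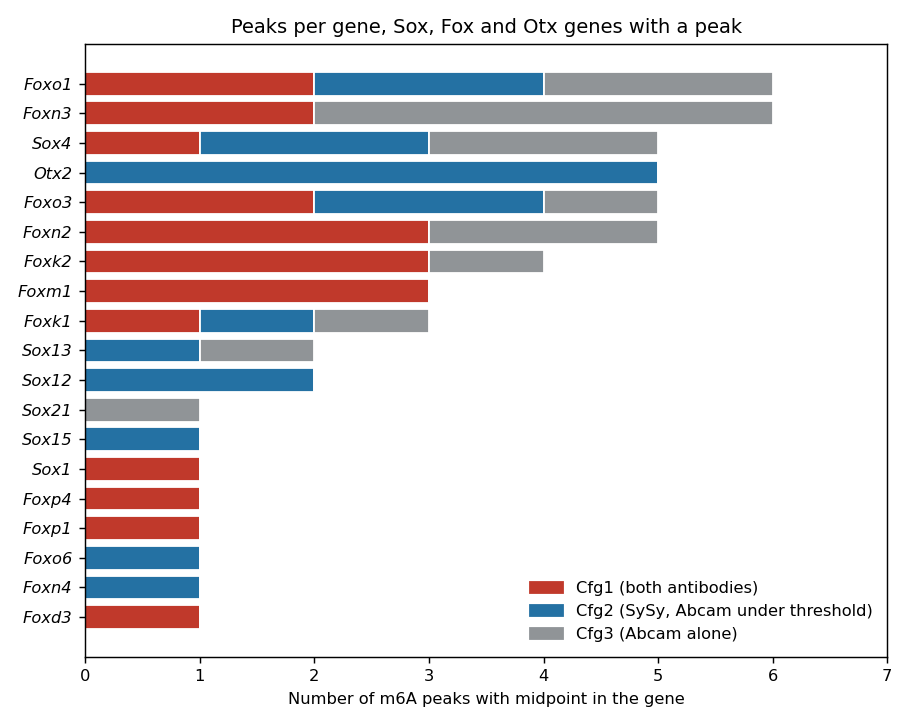
Bars give the number of peaks per gene, stacked by list, for the 19 genes with a peak. Foxo1 and Foxn3 carry 6 peaks each, and the 5 peaks of Otx2 are all from Cfg2.

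Most peaks lay in exons. Of the 39 peaks called with SySy (Cfg1 and Cfg2), 36 had their midpoint in an exon of the representative transcript (92.3%, 79.7% to 97.4%), against 88.8% over all protein-coding genes. Of the other 3, 1 was intronic and 2 lay past the end of a short representative transcript. Those 2, in Foxp1 and Otx2, fell in the 3′ UTR of the longest transcript of their gene, 399 nt and 635 nt after the stop codon. Of the 15 Cfg3 peaks, 6 were exonic (40.0%, 19.8% to 64.3%), against 40.9% over all protein-coding genes. The exonic shares were thus near those of all genes in both classes. The intronic share of the SySy peaks was 2.56% (0.454% to 13.2%), against 8.40% over all protein-coding genes, and that of the Cfg3 peaks was 60.0% (35.8% to 80.2%), against 55.7%.

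Of 42 exonic peaks, 22 were in coding sequence (52.4%, 37.7% to 66.6%), against 63.3% over all protein-coding genes. In 3′ UTRs lay 18 (42.9%, 29.1% to 57.8%), against 32.7%, and in 5′ UTRs 2 (4.76%, 1.32% to 15.8%), against 4.05%. Each of these intervals spanned the share of all genes. In the last exon lay 31 of the 42 exonic peaks (73.8%, 58.9% to 84.7%), against 56.6% over all protein-coding genes. Among the SySy peaks alone it was 26 of 36 (72.2%, 56.0% to 84.2%), against 60.1%, and by gene 15 of 18 (83.3%, 60.8% to 94.2%), against 72.8%, and both intervals spanned the share of all genes. In a gene with 1 exon every exonic peak counts as a last-exon peak by definition. The 5 developmental factors of that kind with peaks held 10 peaks, and their part in these differences was not tested. Within 200 nt of the end of the stop codon lay 16 (38.1%, 25.0% to 53.2%), against 22.2% over all protein-coding genes. Counted by gene, 10 of the 18 genes with an exonic peak had 1 near the stop codon (55.6%, 33.7% to 75.4%), against 46.2% of protein-coding genes with an exonic peak. Among the SySy peaks alone, 13 of 36 exonic peaks lay there (36.1%, 22.5% to 52.4%), against 23.9%. In Cfg1 it was 9 of 19 (47.4%, 27.3% to 68.3%), against 24.5%. In Cfg2 it was 4 of 17 (23.5%, 9.56% to 47.3%), against 23.2%, and in Cfg3 3 of 6 (50.0%, 18.8% to 81.2%), against 15.5%. The intervals over all lists, of Cfg1 and of Cfg3 excluded the share of all genes. Those by gene, of the SySy peaks and of Cfg2 did not. The exclusion in Cfg1 rests on 1 peak, that in the 3′ UTR of Foxo3 at exactly 200 nt. If that peak is not counted as near the stop codon, the Cfg1 interval spans the share of all genes. Peaks of 1 gene share their source, and the intervals by peak treat them as separate. The transcripts are also not alike: the exons that held these peaks had a median length of 3129 nt, against 1666 nt for exons with peaks in all protein-coding genes, and the part of exon length in the difference was not tested.

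**Figure D3:**
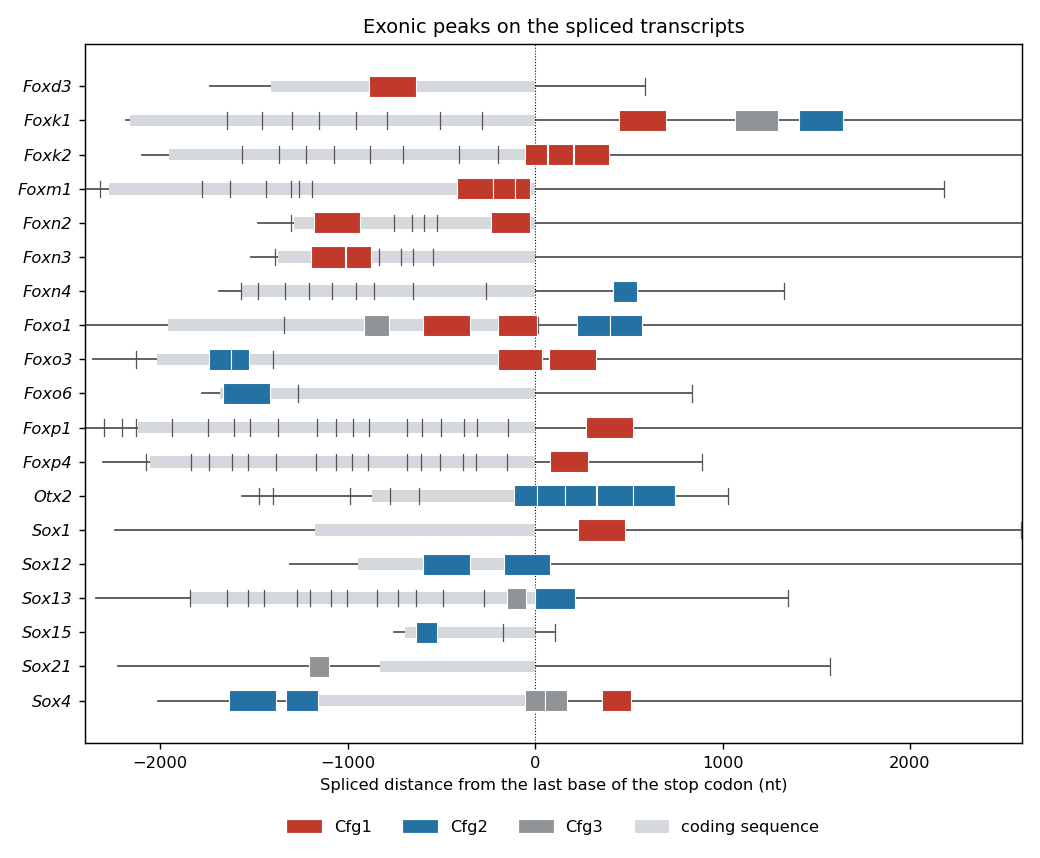
Each line is a spliced transcript aligned at the last base of the stop codon (0 on the horizontal axis, in nucleotides), with the coding sequence as a wide grey bar, exon ends as ticks and peaks coloured by list. There are 10 genes with a peak within 200 nt of the stop codon, and the axis ends before the ends of the longest transcripts. The longest transcript is drawn for Foxp1 and Otx2.

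**Figure D4:**
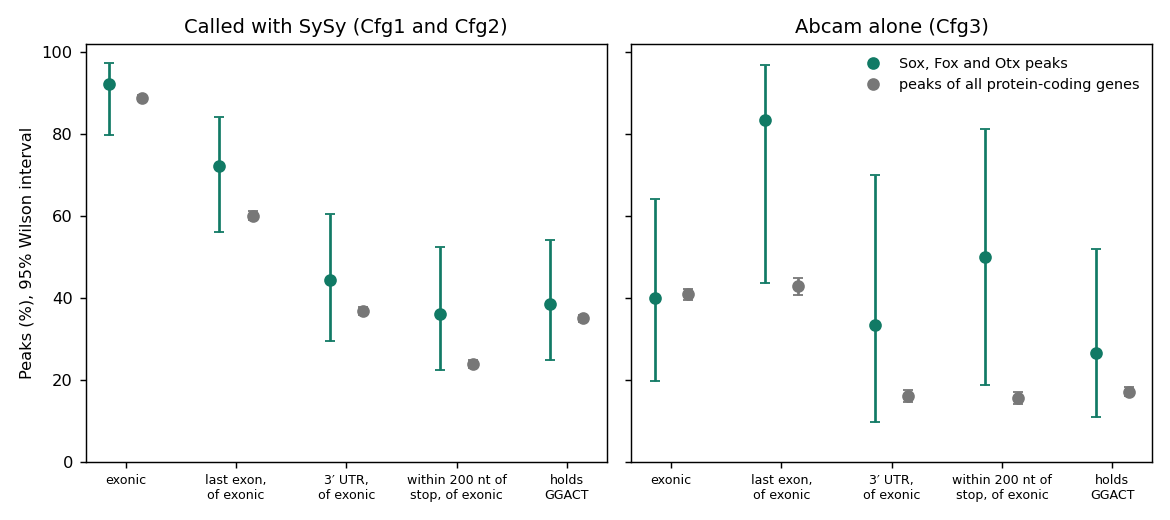
Points give the percentage of peaks with each property, with 95% Wilson intervals, for these genes and for all protein-coding genes. On the left are peaks called with SySy and on the right those called with Abcam alone. The intervals of these genes are wide, and among the SySy peaks each spans the value of all genes.

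FoxO factors move between nucleus and cytoplasm under the control of insulin and growth factor signalling. In Foxo1, exon 2 of 3 held a Cfg3 peak over codons 349 to 393, a Cfg1 peak over codons 453 to 536 and a second Cfg1 peak from codon 587 to the stop codon. Both Cfg1 peaks held 1 GGACT. A pair of Cfg2 peaks followed in the 3′ UTR, with midpoints 310 nt and 484 nt after the stop codon. In Foxo3, 1 Cfg1 peak ran from codon 607 to the stop codon and another lay in the next exon, 200 nt after it. Neither held GGACT, though they had 2 and 3 GGAC. The last peaks of the 2 coding sequences faced each other: in an alignment of the proteins, which were 51.1% identical over 618 aligned residues, the Foxo1 peak had 66 aligned codons and 57 of these lay within the Foxo3 peak. The GGACT of that Foxo1 peak, which starts at base 1821 counted from the first base of the start codon, aligned with GGAAT in Foxo3, a C1824A difference at the base after the adenosine.

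At the start of the frame, Foxo3 held 2 adjoining Cfg2 peaks over codons 93 to 133 and 133 to 164 of exon 2, and Foxo6 held 1 Cfg2 peak over codons 5 to 88 of exon 1. In the alignment, 21 of 21 aligned codons of the first Foxo3 peak and 23 of 31 of the second lay within the Foxo6 peak. The other codons of the first peak fell in gaps. Identical residues made up 33.3% of the aligned codons of the first peak and 67.7% of those of the second. The Foxo6 peak had 3 GGACT, while neither Foxo3 peak had any, and 1 of the 3, at base 153, aligned with GGACC in Foxo3 (T157C). Foxo1 had no peak in its exon 1, although its bases aligned with the GGACT at base 42 of Foxo6 were also GGACT. Of the FoxO genes, Foxo4 alone held no peak.

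Foxn2 and Foxn3 encode forkhead repressors that were 47.6% identical over 420 aligned residues. Both held Cfg1 peaks in exon 2, a coding exon of 551 nt in Foxn2 and of 557 nt in Foxn3, which is neither the last exon nor near the stop codon. The Foxn2 peak covered codons 36 to 119, and the adjoining Foxn3 peaks codons 59 to 121 and 121 to 167. Of 82 aligned codons of the Foxn2 peak, 63 lay within the first Foxn3 peak. The second Foxn3 peak held a GGACT at base 384, which aligned with ACACT in Foxn2. Foxn2 had a further Cfg1 peak over codons 351 to 420 of its last exon, 134 nt before the stop codon, and Foxn3 had no exonic peak beyond exon 2.

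Intronic peaks were found in Foxn2, Foxn3, Foxo1, Foxo3 and Foxk2, 10 in all, and 9 of these were Cfg3 peaks. Foxn3, the second longest of the genes with peaks with a span of 373505 nt, held 4: 1 in intron 2, 1 in intron 3 and 2 in intron 4. These lay between 2042 nt and 29663 nt from the 5′ splice site. Foxn2 held 3, with a Cfg3 and a Cfg1 peak in intron 1, at 57.3% and 76.1% of the intron's length, and a Cfg3 peak in intron 2. In Foxo3, a Cfg3 peak lay 322 nt inside intron 2, downstream of the exon with the 2 Cfg2 peaks. Foxo1 and Foxk2 held 1 Cfg3 peak each in intron 1, 30355 nt and 5823 nt from the 5′ splice site. None of the 10 lay in an exon of any annotated transcript of its gene. GGACT was present in 2 of them, in Foxn2 intron 2 and in Foxn3 intron 3, both Cfg3 peaks. Of the 9 intronic Cfg3 peaks this was 22.2% (6.32% to 54.7%), against 16.4% of intronic Cfg3 peaks of all protein-coding genes. The interval spanned that share.

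**Figure D5:**
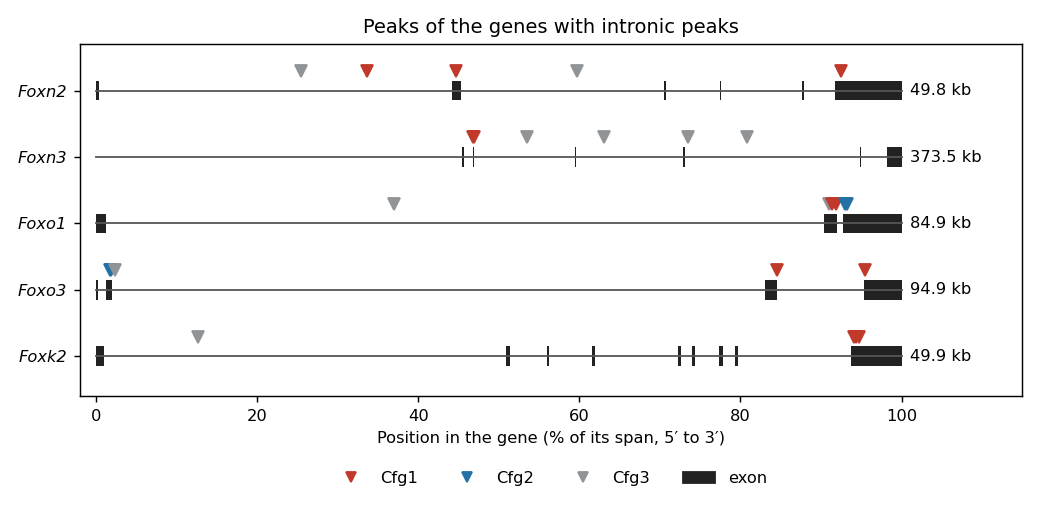
Genes with an intronic peak are drawn 5′ to 3′ as a percentage of their span, with exons as black boxes and peaks as triangles coloured by list, and the span in kb at the right. Grey Cfg3 triangles lie over introns, except 1 of Foxo1 that lies over exon 2. Of the red Cfg1 triangles, only the first of Foxn2 lies over an intron.

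The FoxK genes, which encode forkhead factors with a forkhead-associated domain, had the midpoints of their exonic peaks after the stop codon. The 3 Cfg1 peaks of Foxk2 adjoined each other, with midpoints 4, 135 and 299 nt after the stop codon. The first of them spanned the stop codon and began in codon 634 of 652, and the latter 2 held 1 GGACT each. In Foxk1 a Cfg1, a Cfg3 and a Cfg2 peak lay in this order in the 3′ UTR, 574, 1181 and 1525 nt after the stop codon. The proteins were 60.6% identical, the highest value among the pairs aligned here, yet no peak of Foxk1 lay within 200 nt of its stop codon. Foxm1, a forkhead activator of mitotic genes, had 3 adjoining Cfg1 peaks over codons 620 to 749 of its last exon, with midpoints 322, 168 and 68 nt before the stop codon and no GGACT. Foxp4 held 1 Cfg1 peak 179 nt after its stop codon with 2 GGACT. Foxn4, a factor of retinal and spinal interneurons, held 1 Cfg2 peak 479 nt after its stop codon.

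Foxd3 had 1 Cfg1 peak over codons 175 to 258 of its only exon, 762 nt before the stop codon. It was the sole Fox gene outside the list of widely expressed Fox genes with a Cfg1 peak. The peak held 3 GGAC and no GGACT.

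Among the Sox genes, Sox4 had the most peaks. Sox4, Sox11 and Sox12 form the SoxC group, which is active in neural progenitors and other embryonic tissues. In Sox4 a Cfg2 peak lay in the 5′ UTR and a second over codons 1 to 56, followed by 2 adjoining Cfg3 peaks at the stop codon and 112 nt after it, and by a Cfg1 peak 432 nt after it. The peaks of the 3 lists thus lay at different places of the transcript. Sox12 had 2 Cfg2 peaks, over codons 116 to 199 and from codon 259 to the stop codon, of which the second held 3 GGACT. All 17 aligned codons of the Sox4 Cfg3 peak at the stop codon lay within that Sox12 peak, with 12 identical residues. Of the 3 GGACT in Sox12, the 1 at base 861 was conserved in Sox4, but outside the peaks of Sox4. The 1 at base 900 was conserved in Sox11, where no peak was called. In Sox4 the GGACT at base 900 aligned with AGATT (G900A and C903T).

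The other Sox genes held 1 or 2 peaks. Sox13 had a Cfg3 peak 98 nt before its stop codon and a Cfg2 peak 108 nt after it, each with 1 GGACT. Sox15, a Sox factor expressed in stem cells, had a Cfg2 peak over codons 20 to 57 of exon 1, and Sox21 had a Cfg3 peak in its 5′ UTR. Sox1, a marker of the early neural plate, had a Cfg1 peak 355 nt after its stop codon. That peak also lay in intron 1 of the same-strand noncoding gene Sox1ot, and peaks do not show which RNA carried it. A Cfg3 peak lay on the strand opposite Sox15 (chr11:69656497-69656639), where no gene is annotated, and it was the only peak opposite any of the 126 genes.

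Otx2, a homeobox factor of the anterior neural plate that is also active in the exit from naive pluripotency, had 5 Cfg2 peaks in 1 unbroken run. The run began over codons 261 to 298 and continued into the 3′ UTR, with midpoints at 86, 244 and 424 nt after the stop codon and, in the longest transcript, at 635 nt. None of the 5 held GGACT, and they held between 2 and 5 DRACH. Joined, they formed 1 region.

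GGACT was searched on the strand of each peak. It was present in 19 of the 54 peaks (35.2%, 23.8% to 48.5%), against 28.6% of the peaks in all protein-coding genes. Of the 13 peaks with the full width of 250 nt, 4 held it (30.8%, 12.7% to 57.6%), against 45.3% of full-width peaks in all protein-coding genes. By list, 7 of 21 Cfg1 peaks held GGACT (33.3% against 38.1%), 8 of 18 Cfg2 peaks (44.4% against 31.9%) and 4 of 15 Cfg3 peaks (26.7% against 17.1%), and each interval spanned the value of all genes. At least 1 peak with GGACT was found in 11 of the 19 genes. The 8 genes without were Foxd3, Foxm1, Foxn4, Foxo3, Foxp1, Otx2, Sox1 and Sox21. The matching share over all protein-coding genes with a peak is not given here. The count by gene therefore cannot be set against the background. Of the 35 peaks without GGACT, 20 held GGAC followed by another base, and 34 held DRACH. Over all 54 peaks, 72.2% held GGAC (59.1% to 82.4%), against 62.7% of the peaks in all protein-coding genes. DRACH was in 98.2% (90.2% to 99.7%), against 96.2%, and both intervals spanned the value of all genes. The peaks held 248 DRACH in all, of which 26 were GGACT. The form GGACC occurred as often, and made up 10.5% of DRACH in these peaks and 6.20% in the peaks of all protein-coding genes. The median GC content was 53.6% in these peaks and 50.5% in all, and its part in that difference was not tested.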

How the data were processed

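The labels describe 8 libraries of chromatin-associated RNA from E14 cells, immunoprecipitated or input, with 2 libraries per group and antibody. They do not state that the 2 were separate cultures. The labels name 1 library kit for all libraries, whereas the study's methods name another for SySy, so antibody and kit cannot be told apart. Per the submitters' processing notes the authors called peaks with MACS2 2.1.1 on mm10. They used the duplicates together, assigned strand from the signal over input, trimmed peaks around their summits and deposited start and end positions with a score of 0 in all 17068 lines. The deposited values are therefore positions, not intensities, and depth is unknown. The aligner is not given in the sources used here. One strand field with a stray mark was read as plus.

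Peaks were placed by midpoint on the same strand in GENCODE vM21 genes, with the longest coding sequence as the representative transcript. The annotation release the study used was not used here. All 149 transcripts of these genes, spliced from the assembly, were identical to their GENCODE sequences, and the placement was tested on simulated positions. Proteins translated from the representative transcripts were aligned with Biopython 1.88 (BLOSUM62, gap opening 11, gap extension 1, free end gaps), and intervals came from scipy 1.17.1. No test between groups was made, because the lists pool the libraries. The genes, lists and comparisons were chosen with earlier results of these data known. The text names genes with a Cfg1 peak, with 3 or more peaks or with an intronic SySy peak, and the lineage factors. Foxn4, Foxo6, Sox12, Sox13 and Sox15, and genes named in comparisons, were added after their values were seen. Some items are not reported here.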

Additional observations from a re-analysis of the deposited data

How the results depend on the processing

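No paired analysis was possible because the lists pool the libraries and give no value per library, and for the same reason no library could be left out and no stricter threshold could be set. Placing peaks by any overlap or by either strand, or giving each to 1 gene, left the counts of genes and peaks within 1.5 times. Joining peaks within 100 nt took the Cfg2 peaks from 18 to 11. In the longest transcript or in any transcript, 100% of Cfg2 peaks were exonic in place of 94.4%. Replacing GGACT by GGAC gave 72.2% of peaks, against 62.7% over all protein-coding genes. By list it gave 85.7%, 72.2% and 53.3% for Cfg1, Cfg2 and Cfg3, against 75.3%, 63.6% and 50.6%. DRACH gave 98.2%, against 96.2%. By list it gave 100%, 100% and 93.3%, against 99.3%, 96.7% and 92.8%. Within 100 nt of the stop codon lay 21.4% of exonic peaks and 21.1% of those of Cfg1, in place of 38.1% and 47.4% within 200 nt. A narrower window cannot hold more peaks. The share of all protein-coding genes within 100 nt is not given here, so these values cannot be set against the background. The Foxo3 peak in the 3′ UTR lay at the 200 nt limit, and the Cfg1 interval excluded the share of all genes only with that peak counted. The other 67 values under these alternatives stayed within the interval or, for counts, within 1.5 times of the reported value. With 54 peaks in 19 genes, differences from all genes smaller than the intervals were not detectable.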
